A study of Mus musculus with 12 samples.

Results

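The Toll-like receptor genes Tlr1, Tlr2, Tlr3, Tlr4, Tlr6, Tlr7 and Tlr9, the coreceptor gene Cd14 and the adaptor genes Myd88 and Ticam1 were examined in sorted megakaryocytes (MKs). These 10 genes were taken from the 55536 genes of the count table by symbol, and each symbol matched 1 Ensembl identifier. All 10 passed the filter on low counts, which left 20263 genes for testing. The MKs came from the bone marrow (BM) or spleen of Pf4-TdTomato mice on a C57BL/6 background, in which a Cre driven by the Pf4 promoter turns on the red reporter tdTomato, so the reporter marks cells that express Pf4 or descend from cells that did. Male and female mice of 8 to 12 weeks of age were used in the study. Mice of all 4 groups carried the reporter and were sampled on day 5, after saline (BM saline, spleen saline) or after sepsis brought on with cecal slurry (BM sepsis, spleen sepsis). Each group had 3 replicates, counted as mice in the study, and each library was made from 300 cells sorted as CD45+, lineage negative, tdTomato+, CD41+ and CD42b+.

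Toll-like receptors recognize molecules that are common to microbes. Those on the cell surface bind bacterial lipoproteins (TLR2 paired with TLR1 or TLR6) or lipopolysaccharide (LPS; TLR4 with CD14), and those in endosomes bind nucleic acids (TLR3, TLR7 and TLR9). The adaptor MyD88 serves nearly all of them, and TRIF, the product of Ticam1, serves TLR3 and TLR4. MKs and platelets are known to carry several of these receptors, as are B cells, neutrophils and macrophages.

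Tlr1 and Tlr7 were higher in splenic than in BM MKs when the difference was averaged over saline and sepsis, and the other 8 genes were not called. Differences are given as log2 fold changes from edgeR's quasi-likelihood test, with Benjamini-Hochberg adjustment over all 20263 genes and a call at an adjusted p under 0.05. The log2 fold change was 3.14 for Tlr1 (SE 0.87, edgeR adjusted p = 0.042) and 4.75 for Tlr7 (SE 1.34, edgeR adjusted p = 0.0462). Thus 2 of the 10 genes were called in this comparison, in which 4.75% of all tested genes were called. None of the 10 was called by edgeR in any of the other comparisons, which are given with the values of every library. Both calls were lost under some of the alternatives. In simulated data the share of false calls among the averaged tissue calls of edgeR was above the 0.05 aimed at.

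Tlr1 and Tlr6 lie next to each other on the minus strand of chromosome 5 (GRCm38, Tlr1 at chr5:64924679-64933563 and Tlr6 at chr5:64952031-64960097) and share a stretch of identical coding sequence. The run of 229 bases below is found at chr5:64925537-64925765 in Tlr1 and at chr5:64953828-64954056 in Tlr6, in each gene inside 1 exon and inside the coding sequence. It is shown because reads from it fit both genes equally well.
Tlr1 and Tlr6 shared run: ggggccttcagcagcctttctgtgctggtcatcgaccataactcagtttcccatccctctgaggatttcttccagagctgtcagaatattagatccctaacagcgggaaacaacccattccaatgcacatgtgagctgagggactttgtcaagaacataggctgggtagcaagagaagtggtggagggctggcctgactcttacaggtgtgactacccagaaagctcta
Of the windows of 50 bases in the transcripts, 13.6% of those of Tlr1 and 12.3% of those of Tlr6 were also in the other gene, while no other pair of the 10 genes shared such a window. Of the other genes, 7 lie on GRCm38 at chr3:83836272-83841767 (Tlr2), chr4:66827584-66930284 (Tlr4), chr8:45395665-45411080 (Tlr3), chrX:167304929-167330558 (Tlr7), chr9:106222598-106226883 (Tlr9), chr9:119335934-119341411 (Myd88) and chr17:56269319-56276786 (Ticam1). How the authors' counting treated reads that fit more than 1 gene is not given in the sources used here, so the values of Tlr1 and Tlr6 are uncertain by such reads. For 2 genes part of the exonic sequence overlaps a gene on the other strand, 7.32% for Tlr3 (Gm45542) and 11.3% for Myd88 (Acaa1a), and the strand setting of the counting is not given either.

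Promoter windows (250 bases before to 50 bases after the start of transcription, from RefSeq on GRCm38.p6) were given for 7 of the 10 genes. The windows of the neighbours Tlr1 and Tlr6 are shown side by side because Tlr1 was called between tissues and Tlr6 was not, and each gene has 1 further window. Capitals mark the PU box GAGGAA, the core letters bound by PU.1 and related ETS factors, searched on both strands. The first window is on the minus strand at chr5:64933509-64933808 and the second on the minus strand at chr5:64959999-64960298.
Tlr1 promoter: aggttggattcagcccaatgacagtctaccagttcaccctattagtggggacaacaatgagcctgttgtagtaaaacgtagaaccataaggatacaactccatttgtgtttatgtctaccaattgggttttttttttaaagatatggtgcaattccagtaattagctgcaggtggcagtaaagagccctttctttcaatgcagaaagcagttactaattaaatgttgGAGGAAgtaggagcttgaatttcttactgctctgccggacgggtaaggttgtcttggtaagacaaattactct
Tlr6 promoter: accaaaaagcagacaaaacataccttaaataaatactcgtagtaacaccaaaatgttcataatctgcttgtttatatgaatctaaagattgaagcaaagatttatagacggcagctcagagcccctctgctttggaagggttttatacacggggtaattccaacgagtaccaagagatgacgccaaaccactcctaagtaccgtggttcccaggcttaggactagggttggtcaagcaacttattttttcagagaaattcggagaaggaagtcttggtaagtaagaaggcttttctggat
The printed Tlr1 window held 1 such match, 23 bases before the start (position -23). The printed Tlr6 window and the further window of each of these genes, Tlr1 included, held 0. Among the windows not printed, that of Tlr9 held 2 matches and that of Ticam1 held 1, and edgeR called neither gene between tissues. Those of Myd88, Tlr2 and Tlr3 held 0. Tlr7, also called between tissues, had no window, and neither had Tlr4 and Cd14. With 1 called gene among the 7, whether matches go with calls cannot be told. These letters were present in 28.27% of 32817 promoter windows of the same length, and a match is a description of letters, not of binding.

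The libraries held between 7756762 and 27386184 counts, so that 3 counts, the limit allowed for a count of 0, were worth between 0.105 and 0.403 counts per 1000000 counts (CPM), a limit that covers counting error only. CPM are scaled with edgeR's TMM factors. At least 9 of the 10 MK markers were above 3 counts in every library, and their summed level was between 11641 and 47228 CPM in BM and between 1202 and 3495 CPM in spleen. The summed level of 10 B cell markers was between 62.3 and 290 CPM in BM and between 3015 and 10190 CPM in spleen, with 9 or 10 of them above 3 counts in every BM library and all 10 in every splenic library. The 8 plasma cell markers summed to 1476 to 4674 CPM in BM and 7668 to 80374 CPM in spleen, the 8 T cell markers to 8.03 to 97.0 CPM and 128 to 2203 CPM, and the 9 dendritic cell markers to 47.9 to 141 CPM and 175 to 455 CPM. Neutrophil markers (10 genes) ranged from 65.3 to 16631 CPM in BM and from 70.6 to 20880 CPM in spleen, and monocyte and macrophage markers (12 genes) from 390.2 to 1945 CPM and from 335 to 2747 CPM. The lineage stain of the sort was directed at CD3, CD11b, B220, F4/80 and NK1.1, and so was meant to leave out T, B and NK cells, neutrophils, monocytes and macrophages. In pooled cells, fewer cells of a type and less RNA per cell cannot be told apart. Spleen sepsis replicate 3 stood apart from the other splenic libraries, with 317 CPM of the MK gene Itga2b against 6.40 to 92.8 CPM and with 13.0% of its counts on immunoglobulin and T cell receptor segments against at least 23.5%.

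Most of the 10 genes were expressed at low levels. Between 3 and 9 of them were above 3 counts in a given library, and only Myd88 was above 3 counts in all 12. Per kilobase of exon, which allows levels to be compared between genes, the mean over 12 libraries was highest for Myd88 (13.6 ± 6.48 CPM per kb, SD, n = 12), followed by Tlr1 (6.45 ± 8.54), Tlr7 (3.36 ± 3.90), Ticam1 (3.23 ± 7.77) and Tlr4 (2.13 ± 2.72 CPM per kb). Lower levels were found for Cd14 (1.94 ± 4.69), Tlr2 (1.02 ± 2.03), Tlr3 (0.966 ± 2.57), Tlr9 (0.715 ± 0.957) and Tlr6 (0.659 ± 0.638 CPM per kb). No gene differed from its neighbour in this order by more than the larger of their SDs. Within single libraries, Myd88 had the highest level per kilobase in 8 of 12, among them all 6 BM libraries, Tlr1 in 3 splenic libraries and Ticam1 in 1.

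**Figure D1:**
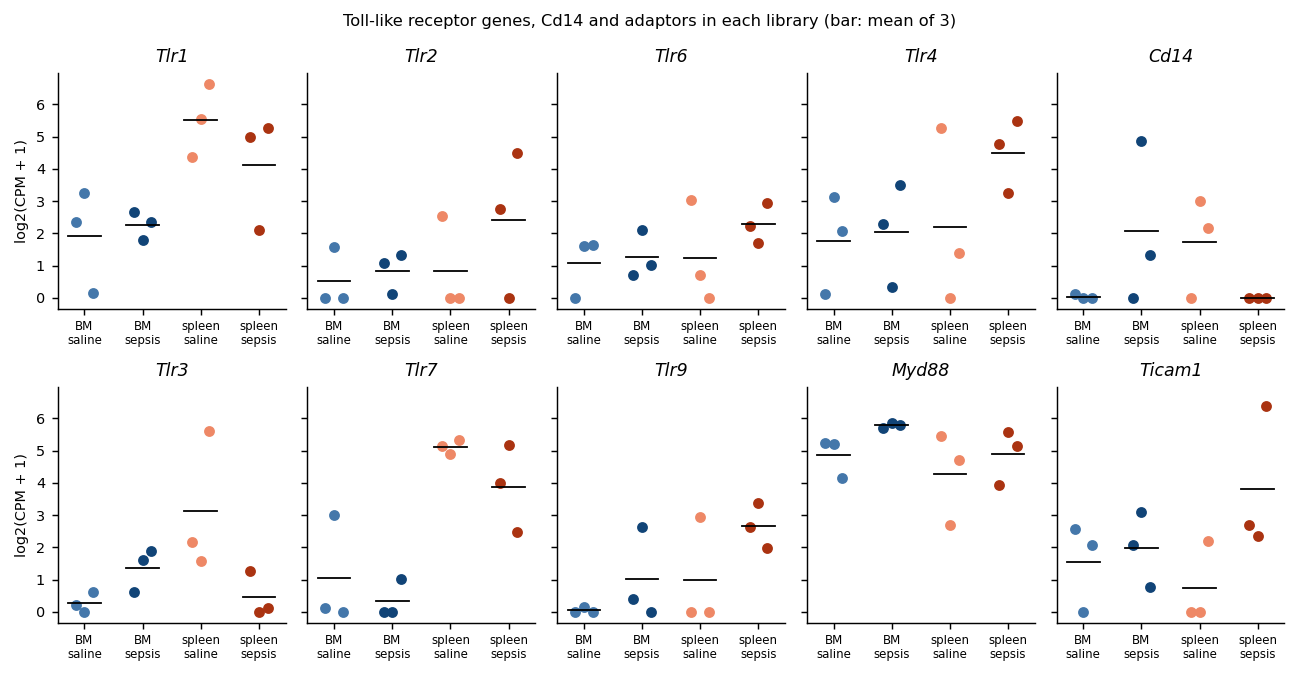
Each panel plots 1 gene, with log2(CPM + 1) on the vertical axis, the 4 groups on the horizontal axis, 1 point per library and a bar at the mean of 3 points. In the panels of Tlr1 and Tlr7, 5 of the 6 splenic points lie above every BM point, and Myd88 is present in all 12 libraries.

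Among the receptors for bacterial lipoproteins, Tlr1, whose product forms the receptor for triacylated lipoproteins with TLR2, was measured at 4.09, 8.51 and 0.107 CPM in BM saline replicates 1 to 3 and at 5.26, 2.45 and 4.13 CPM in BM sepsis. In spleen it was measured at 19.6, 45.5 and 98.1 CPM after saline and at 30.5, 3.34 and 37.5 CPM after sepsis. All splenic libraries but replicate 2 after sepsis were above the highest BM library, so the tissues did not overlap after saline and overlapped by that 1 library after sepsis. The mean over 6 libraries was 39.1 ± 32.4 CPM (SD) in spleen and 4.09 ± 2.81 CPM in BM. The fold change was 3.69 after saline (SE 1.26) and 2.59 after sepsis (SE 1.20), and neither was called by edgeR (adjusted p = 0.228 and 0.381).

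Tlr2, the shared partner of TLR1 and TLR6, was at 0, 1.98 and 0 CPM in BM saline and at 1.10, 0.0845 and 1.50 CPM in BM sepsis. Its values were 4.84, 0 and 0 CPM in spleen saline and 5.79, 0 and 21.5 CPM in spleen sepsis. Of the 6 splenic libraries, 3 lay above all BM libraries and the other 3 were at 0, and the averaged fold change of 2.30 was not called (SE 1.98, edgeR adjusted p = 0.544). Without spleen saline replicate 1 the sign of this difference turned (-1.50), in a fit whose other spleen saline libraries were at 0. Spleen sepsis replicate 3 alone held 58.4% of the summed CPM of Tlr2.

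Tlr6, whose product pairs with TLR2 for diacylated lipoproteins, was at 0, 2.08 and 2.14 CPM in BM saline and at 0.650, 3.30 and 1.01 CPM in BM sepsis. In spleen it was at 7.12, 0.643 and 0 CPM after saline and at 3.69, 2.23 and 6.62 CPM after sepsis. The tissues overlapped, and the averaged fold change was 1.11 (SE 1.70, edgeR adjusted p = 0.761). Its sign turned without spleen saline replicate 1 (-0.49). Tlr1 and Tlr6 therefore had different values in the same libraries, 98.1 CPM and 0 CPM in spleen saline replicate 3, although they share the stretch printed above.

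Of the genes of LPS recognition, Tlr4, the signalling receptor, was at 0.0851, 7.82 and 3.22 CPM in BM saline and at 3.90, 0.253 and 10.4 CPM in BM sepsis. It was at 37.1, 0 and 1.60 CPM in spleen saline and at 26.1, 8.58 and 43.3 CPM in spleen sepsis. Of the splenic libraries 3 were above every BM library and 1 was below every one, and the averaged fold change of 2.11 was not called (SE 1.26, edgeR adjusted p = 0.37). Without spleen saline replicate 1 it was 0.02. The summed neutrophil markers were also uneven, at 20880 CPM in spleen saline replicate 1 and 10353 CPM in spleen sepsis replicate 1, the splenic libraries next to the highest in Tlr4, but at 184 CPM in spleen sepsis replicate 3, which had the highest value, and their part in the values of Tlr4 was not tested.

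Cd14, the coreceptor that hands LPS to TLR4, was above 3 counts in 4 of 12 libraries. It was at 0.0851, 0 and 0 CPM in BM saline, at 0, 28.2 and 1.50 CPM in BM sepsis, and at 0, 6.99 and 3.52 CPM in spleen saline. All 3 spleen sepsis libraries were at 0. Against the limit of 3 counts per library in spleen sepsis, the mean of BM sepsis was 38.3-fold higher and that of spleen saline 13.6-fold higher. That limit covers counting error only, so these ratios leave out the spread between libraries and are not lower bounds of the difference. For spleen sepsis, the 95% interval of the log2 fold change in edgeR reached up to -2.50 against BM sepsis and -1.47 against spleen saline. BM sepsis replicate 2 alone held 70.0% of the summed CPM of the gene. In both comparisons the groups overlapped, because BM sepsis and spleen saline each had a library at 0. Cd14 was not called by edgeR after sepsis between tissues (adjusted p = 0.259) or in spleen between treatments (adjusted p = 0.382), and DESeq2 called the former (adjusted p = 0.0197). Csf1r, the defining gene of the monocyte and macrophage list, was at 0, 0 and 0.192 CPM in spleen sepsis and at 21.5, 0.322 and 25.8 CPM in spleen saline. In BM sepsis it was at 15.8, 2.62 and 10.1 CPM. Within spleen saline and within BM sepsis, Csf1r was lowest in replicate 2, where Cd14 was highest. The summed markers of the whole list were between 335 and 920 CPM in spleen sepsis and between 1431 and 2747 CPM in spleen saline. The part of these cells in the values of Cd14 was not tested.

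Among the endosomal receptors, Tlr7, the sensor of single-stranded RNA, was low in BM. It was at 0.0851, 6.93 and 0 CPM in BM saline and at 0, 0 and 1.01 CPM in BM sepsis. In spleen it was at 34.0, 28.6 and 39.5 CPM after saline and at 14.9, 34.9 and 4.60 CPM after sepsis. The tissues did not overlap within either treatment, and over both treatments only spleen sepsis replicate 3 fell below the highest BM library. The mean over 6 libraries was 26.1 ± 13.5 CPM (SD) in spleen and 1.34 ± 2.77 CPM in BM. The fold change was 3.87 after saline (SE 1.82) and 5.63 after sepsis (SE 1.98), and edgeR called neither (adjusted p = 0.396 and 0.236).

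Tlr3, the sensor of double-stranded RNA, was at 0.170, 0 and 0.536 CPM in BM saline and at 0.520, 2.03 and 2.69 CPM in BM sepsis. It was at 3.49, 2.01 and 47.4 CPM in spleen saline and at 1.38, 0 and 0.0959 CPM in spleen sepsis. Every spleen saline library was therefore above every library of BM saline and of spleen sepsis, and spleen saline replicate 3 alone held 78.6% of the summed CPM. The tissue difference was 6.18 after saline (SE 2.45, edgeR adjusted p = 0.334) and -1.78 after sepsis (SE 2.01, edgeR adjusted p = 0.778), and the average of 2.20 was not called (SE 1.46, edgeR adjusted p = 0.421). Without spleen saline replicate 3 the difference after saline was 3.47 and the average 0.84, and without spleen sepsis replicate 1 the difference after sepsis was -4.98 and the average 0.57. In the latter fit the spleen sepsis libraries left had 0 and 1 counts.

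Tlr9, the sensor of unmethylated CpG DNA, was at 0, 0.0989 and 0 CPM in BM saline and at 0.325, 5.15 and 0 CPM in BM sepsis. It was at 0, 6.59 and 0 CPM in spleen saline and at 5.22, 9.47 and 2.97 CPM in spleen sepsis. Spleen sepsis was the only group in which all 3 libraries were above 3 counts. The averaged tissue difference of 3.71 was not called (SE 2.05, edgeR adjusted p = 0.33) and turned to -0.23 without spleen saline replicate 2, in a fit whose other spleen saline libraries were at 0.

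Of the adaptors, Myd88 varied least of the 10 genes between libraries, with an SD of log2 CPM of 0.94 over the 12. It was at 36.9, 35.5 and 16.6 CPM in BM saline, at 51.1, 57.4 and 54.2 CPM in BM sepsis, at 42.5, 5.47 and 25.0 CPM in spleen saline and at 14.3, 47.1 and 34.6 CPM in spleen sepsis. The 3 BM sepsis libraries were the highest of all 12, and the averaged tissue difference was -0.52 (SE 0.56, edgeR adjusted p = 0.639). The 95% interval of this difference was -1.69 to 0.65.

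Ticam1 was at 4.94, 0 and 3.22 CPM in BM saline and at 3.18, 7.61 and 0.700 CPM in BM sepsis. It was at 0, 0 and 3.62 CPM in spleen saline and at 5.48, 4.12 and 83.0 CPM in spleen sepsis. Spleen sepsis replicate 3 alone held 71.6% of its summed CPM, and the averaged tissue difference of 0.93 was not called (SE 1.33, edgeR adjusted p = 0.74) and turned to -2.60 without spleen saline replicate 3 and to -0.43 without spleen sepsis replicate 3. The -2.60 came from a fit whose other spleen saline libraries were at 0. Spleen sepsis replicate 3 also held the highest value of Tlr2 and of Tlr4.

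**Figure D2:**
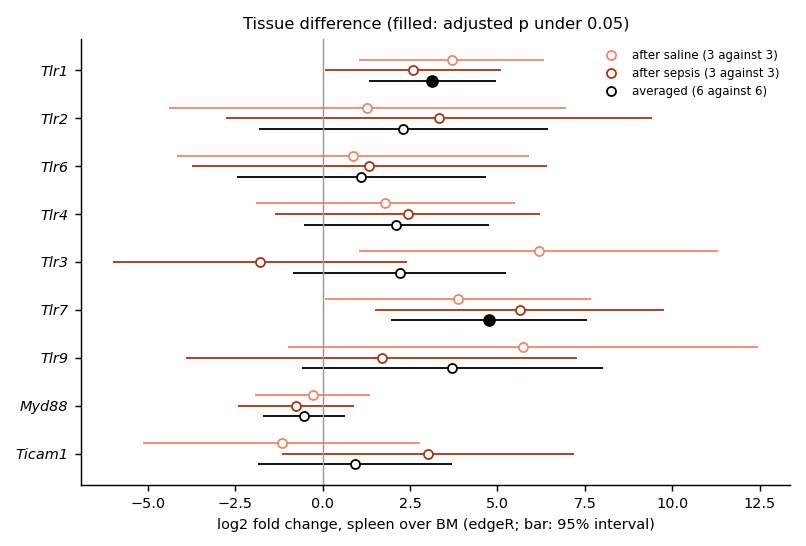
The horizontal axis gives the log2 fold change of spleen over BM in edgeR for 9 genes (Cd14, at 0 in 1 group, is left out), with 95% intervals, after saline, after sepsis and averaged over both. Filled points, those of Tlr1 (3.14) and Tlr7 (4.75) in the average, had an adjusted p under 0.05.

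Between tissues the 10 genes can be set beside all tested genes. In the averaged comparison 8 of 10 fold changes were positive with a median of 2.16 (2.20 without Cd14), against 53.1% of all tested genes and a median of 0.125. No member had every splenic library above every BM library, which 1.86% of tested genes did, and none had every one below (2.57%). In the same comparison 2 of the 10 had an unadjusted p under 0.05 (19.3% of tested genes), and both were also called by DESeq2 (which called 12.9% of tested genes) and by limma-voom with quality weights (7.49%). DESeq2 made more false calls than true ones between tissues in simulated data, in which fewer genes were changed than edgeR called in any tissue comparison here. After saline alone, 0 were called by edgeR (1.25% of tested genes), 3 had an unadjusted p under 0.05 (12.5%), DESeq2 called 2 (6.47%), Tlr1 and Tlr3, and limma-voom 0 (0.913%). The libraries of Tlr1, Tlr3 and Tlr7 were all higher in spleen, 3 of 10 where 6.97% of tested genes were, and 0 of 10 were all lower (11.4%). After sepsis alone, edgeR called 0 (1.78%), 3 had an unadjusted p under 0.05 (12.9%), DESeq2 called 2 (7.26%), Cd14 and Tlr7, and limma-voom 1 (3.57%), Tlr7. In that comparison all libraries were higher in spleen for Tlr7 (1 of 10, against 6.98% of tested genes) and lower for Myd88 (1 of 10, against 11%). The comparisons after saline and after sepsis have no libraries in common, and the averaged comparison uses those of both.

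The calls of Tlr1 and Tlr7 moved across the threshold with the processing. Tlr1 was called in 10 of 20 alternatives, with an adjusted p in edgeR, DESeq2 or limma-voom between 0.000391 and 0.103 and a fold change between 2.71 and 3.55. It was not called by edgeR without BM saline replicate 1 (adjusted p = 0.0821) or 3 (0.0762), without BM sepsis replicate 1 (0.0561), 2 (0.0853) or 3 (0.0671), without spleen saline replicate 3 (0.103), or without spleen sepsis replicate 1 (0.0571) or 3 (0.0625). Tlr7 was called in 16 of 20 alternatives, with an adjusted p between 0.000284 and 0.065 in the same tools and a fold change between 4.22 and 7.38. It was not called by edgeR without BM saline replicate 1 (adjusted p = 0.0623) or spleen sepsis replicate 2 (0.0557). Without BM saline replicate 2 its fold change rose to 7.38 and without BM sepsis replicate 3 to 7.27. Of these, the tissue difference of Tlr7 was called after saline without BM saline replicate 2 (9.19, edgeR adjusted p = 0.0446) and after sepsis without BM sepsis replicate 3 (10.70, edgeR adjusted p = 0.0263), the libraries with the highest Tlr7 of their groups. The BM saline libraries then left had 1 and 0 counts of Tlr7, and the BM sepsis libraries then left had 0 and 0. The fold changes of these fits, averaged ones included, are therefore not measured sizes.

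**Figure D3:**
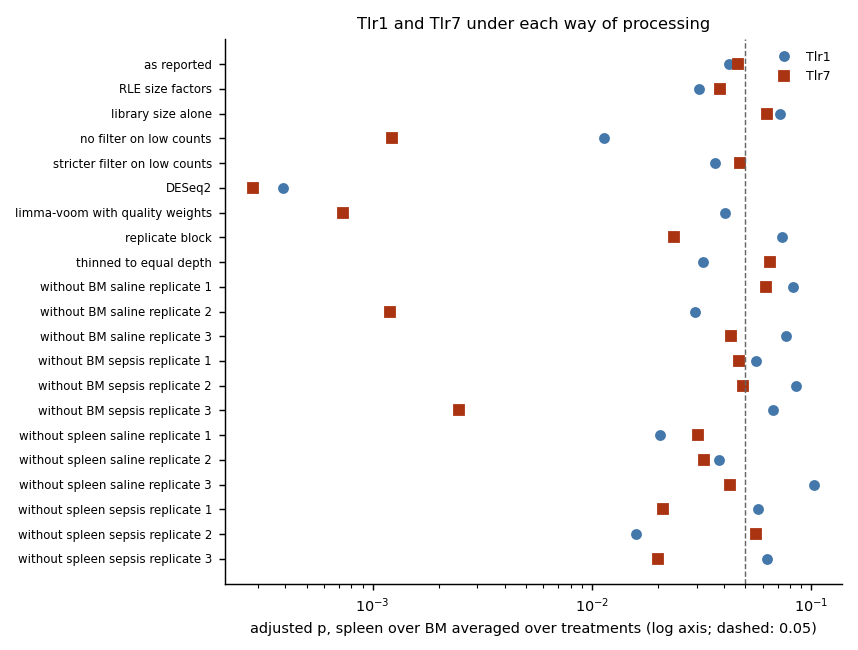
Adjusted p of the averaged tissue difference (horizontal, log axis, dashed line at 0.05) for Tlr1 (circles) and Tlr7 (squares), as reported and under each of 20 alternatives. Tlr1 lies left of the line in 10 alternatives and Tlr7 in 16.

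B cell markers moved with the same contrast, as did other lists, and the part of these cells in the difference of Tlr1 and Tlr7 was not tested. The sum of the 10 B cell markers did not overlap between tissues and was higher in spleen. The same held for the plasma cell, T cell and dendritic cell sums. The MK sum did not overlap either and was lower in spleen, while the neutrophil sum and the monocyte and macrophage sum overlapped. Within spleen the order of the libraries was not the same for the 2 genes. In spleen replicates 1 to 3 the B cell sum was 4090, 3025 and 7196 CPM after saline and 10190, 8976 and 3015 CPM after sepsis. In the same order Tlr7 was at 34.0, 28.6 and 39.5 CPM and at 14.9, 34.9 and 4.60 CPM. Tlr1 was at 19.6, 45.5 and 98.1 CPM and at 30.5, 3.34 and 37.5 CPM.

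Sepsis against saline was compared in each tissue to ask whether the receptors or adaptors responded 5 days after the insult. In BM, edgeR called 0 of the 10 genes and 0% of all tested genes, 1 had an unadjusted p under 0.05 (3.54% of tested genes), DESeq2 called 0 (1.02%) and limma-voom 0 (0%). Myd88 was the 1 gene with all sepsis libraries above all saline libraries (4.84% of tested genes), with means of 54.2 and 29.7 CPM and a fold change of 0.87 (SE 0.80, edgeR adjusted p = 1), and 0 genes had all sepsis libraries below (4.13%). The 95% interval of this difference was -0.80 to 2.53. The neutrophil marker sum moved in the same direction, from 65.3 to 270 CPM in BM saline to 2242 to 16631 CPM in BM sepsis, and its part in the value of Myd88 was not tested.

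In spleen, edgeR called 0 of the 10 genes (0.158% of tested genes), 3 had an unadjusted p under 0.05 (13.1%), DESeq2 called 1 (4.87%) and limma-voom 0 (0%). Ticam1 had all 3 sepsis libraries above all saline libraries (1 of 10, against 4.99% of tested genes), with a fold change of 4.67 (SE 2.16, edgeR adjusted p = 0.382) that was 1.99 without spleen sepsis replicate 3 and 11.66 without spleen saline replicate 3. The spleen saline libraries left in the latter fit were both at 0, so 11.66 is not a measured size. Tlr3 had all 3 below (1 of 10, against 4.51%), with a fold change of -5.11 (SE 2.32, edgeR adjusted p = 0.382), and was the gene called by DESeq2 (adjusted p = 0.0363). This fold change was -2.42 without spleen saline replicate 3 and -8.23 without spleen sepsis replicate 1, where the spleen sepsis libraries left had 0 and 1 counts. The adjusted p of Tlr3 lay between 0.0363 and 1 in the alternatives fitted with these tools. Tlr1 and Tlr7 had fold changes of -1.20 (SE 1.15, edgeR adjusted p = 0.756) and -0.92 (SE 1.63, edgeR adjusted p = 0.914) in spleen, with 95% intervals of -3.60 to 1.20 and -4.32 to 2.49.

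The tissue by sepsis interaction, which tests whether the effect of sepsis differs between tissues, was called by edgeR for 0 of the 10 genes and 0% of tested genes. An unadjusted p under 0.05 was found for 2 genes (7.68% of tested genes), and DESeq2 called 2 (2.44%), Cd14 (adjusted p = 0.00504) and Tlr3 (adjusted p = 0.0341), and limma-voom 0 (0%). In edgeR the interaction of Tlr3 was -7.96 (SE 3.12, adjusted p = 0.566), and that of Cd14 had an adjusted p of 0.543.

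Of 8 genes for accessory and trafficking proteins, which help the receptors bind their ligands or reach their compartment, 5 were higher in splenic MKs in the averaged comparison and 0 were lower, with a median fold change of 2.72, where edgeR called 4.75% of all tested genes and the median over them was 0.125. In the same comparison edgeR called 10 of 10 B cell markers (median 5.34) and 6 of 8 plasma cell markers (median 4.77) higher in spleen, and the part of these cells in the values of the list was not tested. Ly86 (MD-1) and its partner Cd180 (RP105), which together form a surface complex of B cells that tunes responses to LPS, had fold changes of 4.19 (SE 0.52, edgeR adjusted p = 4.71e-05) and 2.63 (SE 0.55, edgeR adjusted p = 0.00619). The mean of Ly86 was 21.7 ± 1.32 CPM (SD, n = 3) in BM saline and 514 ± 234 CPM in spleen saline, and 67.0 ± 60.3 CPM and 935 ± 662 CPM after sepsis. Unc93b1, which carries the endosomal receptors from the endoplasmic reticulum, had a fold change of 3.50 (SE 0.60, edgeR adjusted p = 0.00119), from 6.69 ± 5.86 CPM in BM to 90.4 ± 49.2 CPM in spleen after saline. Cd36, a scavenger receptor that assists TLR2 and TLR6, had the largest fold change of the list, 5.29 (SE 0.76, edgeR adjusted p = 0.000228). Ly96 (MD-2), the LPS-binding partner of TLR4, had 2.81 (SE 0.70, edgeR adjusted p = 0.0223), which was lost without spleen sepsis replicate 2 (2.29, edgeR adjusted p = 0.0583). Hsp90b1 (gp96), the chaperone of the receptors, had the highest level per kilobase of the list and was called after sepsis (2.14, SE 0.54, edgeR adjusted p = 0.0464) but not in the average (1.10, edgeR adjusted p = 0.103). Its call after sepsis held in 7 of 12 fits with 1 library left out, with an adjusted p between 0.0307 and 0.206 in edgeR. Within single treatments, Ly86 and Unc93b1 were also called after saline, and Ly86 and Cd36 after sepsis, that of Unc93b1 being lost without BM saline replicate 2 (edgeR adjusted p = 0.147) or 3 (0.135) or spleen saline replicate 3 (0.0634).

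The next lists are given for the averaged comparison unless stated otherwise, in which edgeR called 4.75% of all tested genes, 2.68% as higher in spleen. Of the other adaptors, 1 of 3 tested was higher in spleen, Pik3ap1 (BCAP; 3.60, SE 0.95, edgeR adjusted p = 0.0309), an adaptor of B cells and macrophages that links the receptors to PI3K. Of the 15 kinases and ligases, edgeR called 0 in any of the 6 comparisons. In the average, 2 had an unadjusted p under 0.05 (19.3% of tested genes), DESeq2 called 2 (12.9%) and limma-voom 0 (7.49%). Over the 6 comparisons, 4 had an unadjusted p under 0.05 in at least 1, DESeq2 called 3 and limma-voom 0, counts for which the share over all genes was not taken. Irak1 had the highest level of them per kilobase and a fold change of 0.19 (SE 0.39, edgeR adjusted p = 0.837). Of 6 transcription factors, Rel (3.67, SE 0.88, edgeR adjusted p = 0.0179) and Irf5 (3.19, SE 0.78, edgeR adjusted p = 0.0193) were higher in spleen, and that of Irf5 was lost without spleen saline replicate 3 (edgeR adjusted p = 0.0522) or spleen sepsis replicate 3 (0.0572). Of 5 inhibitors, Nfkbia, which encodes the NF-kappa-B inhibitor IkB-alpha, was higher (2.14, SE 0.38, edgeR adjusted p = 0.00166). It was also called after saline (2.26, edgeR adjusted p = 0.0427), in 2 of 12 fits with 1 library left out (adjusted p between 0.0147 and 0.354 in edgeR). Of the 2 other Toll-like receptors that passed the filter, neither was called, Tlr13 having a fold change of 4.50 (SE 2.09, edgeR adjusted p = 0.245).

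**Figure D4:**
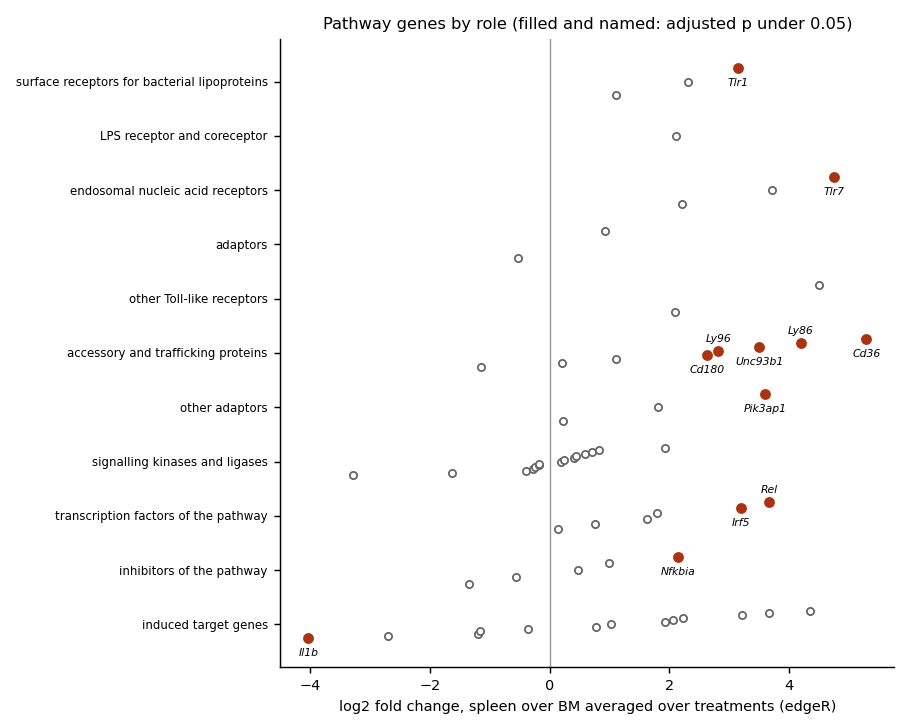
Each point is 1 tested gene of the pathway, placed by its log2 fold change of spleen over BM averaged over treatments (horizontal) and by its role (vertical, with the receptors, coreceptor and adaptors described above in the upper 4 rows; Cd14 is left out). Filled and named points had an adjusted p under 0.05 in edgeR, and the accessory and trafficking list holds 5 of them.

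Among 13 tested genes that the pathway induces, Il1b was lower in spleen in the average (-4.03, SE 1.03, edgeR adjusted p = 0.0262) and after sepsis (-6.92, SE 1.67, edgeR adjusted p = 0.0347), where its mean was 0.369 ± 0.595 CPM (SD, n = 3) against 45.2 ± 26.0 CPM in BM. Without BM sepsis replicate 1 (adjusted p = 0.0594), spleen sepsis replicate 1 (0.0541) or spleen sepsis replicate 2 (0.0517) the latter was not called by edgeR. Ccl4 was also lower in spleen after sepsis (-3.44, SE 0.84, edgeR adjusted p = 0.0366) but not without spleen sepsis replicate 2 (edgeR adjusted p = 0.0556) or in 4 other alternatives (adjusted p between 0.0584 and 0.445 in edgeR or limma-voom). The chemokine genes Ccl3 and Ccl4 were the 2 of 52 tested pathway genes called by edgeR between treatments in splenic MKs (0.158% of all tested genes). Of the 52, 11 had an unadjusted p under 0.05 (13.1% of all tested genes), 7 were called by DESeq2 (4.87%) and 0 by limma-voom (0%). Ccl3 fell from 2366 ± 1721 CPM to 25.5 ± 34.6 CPM (-6.54, SE 1.04, edgeR adjusted p = 0.0133) and Ccl4 from 1641 ± 1231 CPM to 8.53 ± 8.99 CPM (-7.59, SE 1.01, edgeR adjusted p = 0.00667). Both calls held in all 12 fits with 1 library left out and were lost in limma-voom (adjusted p = 0.47 and 0.421) and in edgeR fitted to the splenic libraries alone (adjusted p = 0.356 and 0.307). The summed monocyte and macrophage markers were also lower after sepsis in spleen, at 335 to 920.5 CPM against 1431 to 2747 CPM after saline. Fold changes in edgeR, called or not, were negative for 8 of 11 tested markers of that list and 7 of 8 T cell markers. They were also negative for 7 of 10 neutrophil, 5 of 8 dendritic cell, 4 of 10 MK, 2 of 10 B cell and 2 of 8 plasma cell markers. Of all tested genes, 47.4% had a positive fold change. The part of these cells in the fall of Ccl3 and Ccl4 was not tested. In BM edgeR called 0 of the 52 tested genes of these lists between treatments (0% of all tested genes). Of the 52, 7 had an unadjusted p under 0.05 (3.54%), 2 were called by DESeq2 (1.02%) and 0 by limma-voom (0%).

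The genes whose pattern over the 12 libraries was nearest to each of the 10, by the root mean square difference of mean-centred log2 CPM among 20107 genes, were named without regard to function. For Tlr1 they were Fosb (0.882), Plekho1 (1.06) and Nfkbiz (1.09), where the median over all genes was 2.83. For Tlr7 they were Fam102a (1.27), Ltb (1.33) and Nebl (1.35), with a median of 3.71. For Myd88 they were Synj2bp (0.461), Atp6v0d1 (0.471) and Runx3 (0.490), with a median of 2.09. The nearest were Ctu2 (0.730), Gm13212 (0.952) and Rab5b (0.955) for Tlr6, D130017N08Rik (1.01), Plekha4 (1.01) and Gm43625 (1.08) for Tlr2, and Ccl25 (1.24), Hpgds (1.42) and Gm31597 (1.46) for Tlr4. They were Gm26831 (1.28), 1190005I06Rik (1.29) and Smok2a (1.30) for Tlr3, and Vmn1r206 (0.471), Adm2 (0.758) and Slc25a18 (0.845) for Tlr9. They were Gm40309 (0.656), Mrc1 (1.13) and Stk32b (1.28) for Ticam1, and Tnfsf13os (0.760), Ankrd36 (1.06) and Gm43705 (1.10) for Cd14.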

How the data were processed

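RNA was measured in MKs sorted from BM and spleen, in 12 libraries of 4 groups. The authors deposited a table of raw counts, the reads assigned to each of 55536 genes, which were not normalized. The submitters' processing notes name STAR 2.7.2b, R 3.6.1, DESeq2 1.26 and the GRCm38 build without saying what each did, and the sources used here do not give the annotation, strand setting or filters. Columns were assigned to groups by their names, and all 55536 identifiers were found in GENCODE M21 on GRCm38, from which symbols, positions and lengths were taken. Total counts of 7756762 to 27386184 per library set the precision only in part, since the common dispersion of 2.05 in edgeR (a biological coefficient of variation of 143%) came from the spread between libraries.

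Differences were tested with edgeR 4.0.16 (R 4.3.3). Genes were kept with filterByExpr (minimum count 10), scaled with TMM factors and fitted with 1 mean per group (8 residual degrees of freedom). The quasi-likelihood test was applied to 6 comparisons, with Benjamini-Hochberg adjustment over 20263 genes and calls at an adjusted p under 0.05. Alternatives were RLE factors, library size alone, no filter, a stricter filter (10 counts in at least 6 libraries), DESeq2 1.42.0, limma-voom with quality weights (limma 3.58.1), the replicate number as a block, random thinning to the lowest total, the compared libraries alone, and each library left out in turn. Where a library was left out, the remaining pair was assumed to vary like the other groups. The procedure was tested on simulated data, in which the share of false calls among the averaged tissue calls of edgeR was above the 0.05 aimed at. In the same data DESeq2 made more false calls than true ones between tissues. Fewer genes were changed in the simulated data than edgeR called in any tissue comparison here, so that balance need not hold for the real calls. Python 3.11.15, pandas 2.3.3 and matplotlib 3.10.9 made the tables and figures. The 10 genes and the lists of other pathway genes and cell markers were chosen with earlier results of these data known. The genes named are the 10, those of the other pathway lists that edgeR called in any comparison or that had the highest level per kilobase of their list, and the 3 genes most alike to each of the 10 in log2 CPM (prior count 2), immunoglobulin and T cell receptor segments left out. p-values rest on the spread between replicates within groups, pooled over the 4 groups and drawn toward that of other genes. The study counts the 3 replicates of a group as 3 mice.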

Additional observations from a re-analysis of the deposited data

How the results depend on the processing

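Of the 10 genes, the number called in the averaged tissue comparison, 2 as reported, was 0 with library size alone, 1 with the replicate block (Tlr7, with Tlr1 at an adjusted p of 0.0734) and 1 after thinning to equal depth (Tlr1, with Tlr7 at an adjusted p of 0.065), and from 0 to 2 with 1 library left out, all in edgeR. After saline the number, 0 as reported, was 2 in DESeq2 and from 0 to 1 with 1 library left out. After sepsis between tissues it was 1 without a filter, 2 in DESeq2, 1 in limma-voom and from 0 to 1 with 1 library left out. DESeq2 also gave 1 between treatments in spleen and 2 for the interaction, against 0 as reported. In the sepsis comparison in BM the number was 0 in all 21 alternatives. With library size alone, Tlr1 and Tlr7 had adjusted p-values of 0.0721 and 0.0625 in edgeR, and the median of all genes in the averaged comparison moved from 0.125 to -0.384 (0.321 with RLE factors), while the 9 fold changes of the genes other than Cd14 kept their direction under both scalings. The share of calls that were higher in spleen moved with the scaling, from 543 of 962 to 424 of 1515 with library size alone. With library size alone it was also 114 of 376 after saline (147 of 253 as reported, 182 of 261 with RLE factors) and 166 of 380 after sepsis (240 of 361 as reported), and between treatments in spleen 8 of 30 calls were higher after sepsis with RLE factors (12 of 32 as reported). Over all alternatives the calls among all genes ranged from 810 to 2615 in the averaged comparison, from 179 to 1312 after saline, from 256 to 1472 after sepsis, from 0 to 986 between treatments in spleen, from 0 to 206 in BM and from 0 to 495 for the interaction. Among the differences that the text prints with a test and that were refitted in every alternative, those that turned with all libraries kept were the averaged differences of Ticam1 in limma-voom (-0.008) and with the replicate block (-1.25) and of Irak1 with library size alone (-0.394). With 1 library left out, that of Ticam1 ranged from -2.60 to 1.39, of Tlr2 from -1.50 to 5.28, of Tlr6 from -0.49 to 1.56, of Tlr9 from -0.23 to 5.37 and of Irak1 from -0.034 to 0.331, and the difference of Myd88 between treatments in spleen ranged from -0.076 to 1.09. The cause was not tested. The lowest values of Ticam1, Tlr2 and Tlr9 and the highest of Tlr2 came from fits in which a group was left at 0 counts, and are not measured sizes. Between 4 and 6 accessory and trafficking genes were called in the alternatives, against 5 as reported, and the 6 called by DESeq2 included Hsp90b1. Whether same-numbered libraries of BM and spleen came from the same mouse is not given in the sources used here. Their deviations from the group means correlated between -0.0566 and 0.0447 over 18 pairs. With 3 libraries per group and a biological coefficient of variation of 143%, these correlations cannot exclude such a pairing. The replicate block is given as an alternative fit. Tlr9 and Cd14 did not pass the stricter filter and have no value there. With lengths from the longest transcript in place of the union of exons, Tlr2 and Tlr3 exchanged their places in the order of levels. At these depths a gene at 0 may still have been present at up to 0.105 to 0.403 CPM, depending on the library.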
